A study of Arabidopsis thaliana with 12 samples.

Results

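The genes described here are 8 disease resistance genes of Arabidopsis thaliana that lie near one another on chromosome 4: RPP4 (AT4G16860), SNC1 (AT4G16890), AT4G16900, AT4G16920, AT4G16940, RPP5 (AT4G16950), AT4G16960 and RLM3 (AT4G16990). They were taken by gene identifier from the deposited expression table, which holds 27655 genes. Each of the 8 was found there, and each was among the 20881 genes that reached at least 1 TPM in at least 3 libraries. TPM, the unit of that table, is a read count divided by gene length and scaled to the same total in each library. RNA was sequenced from whole seedlings aged 3 weeks, grown at 22 °C in days of 16 h light and 8 h dark.

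There were 4 groups of 3 libraries. Col is the wild type of the accession Columbia. The group called HTR5 here is labelled h3.3ko;HTR5, a knockout of the histone variant H3.3 that carries the H3.3 gene HTR5. The group called K4A is labelled h3.3ko;HTR5 K4A, the same knockout with HTR5 in which lysine 4, as the label reads, is replaced by alanine. The last group is labelled sdg2, for the histone H3 lysine 4 methyltransferase gene SDG2. The promoter that drives HTR5, the alleles behind the knockout and the sdg2 label, and the number of independent lines are not given in the sources used here. Nothing in the labels says that replicates came from separate cultures, so p-values measure the spread between these libraries, which may be technical.

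NLR proteins are receptors inside plant cells that recognise products of pathogens and set off a defence response that often ends in local cell death. Those with an N-terminal TIR domain pass their signal through EDS1 and its partners PAD4 and SAG101, and on to the helper receptors ADR1 and NRG1. The RPP4, RPP5 and SNC1 genes belong to a cluster known for resistance to downy mildew. RPP4 acts in Columbia, and RPP5 was described in the accession Landsberg erecta. The snc1 mutation makes SNC1 active without a pathogen, and plants that make too much SNC1 stay small and show constant defence. RLM3 is known for resistance to the fungus Leptosphaeria maculans. The histone methyltransferase ATXR7 has been tied to lysine 4 methylation at SNC1 and RPP4. The other 4 genes have no symbol in the files and are called by their identifiers. RefSeq annotates them, like RPP4, SNC1 and RPP5, as TIR-NBS-LRR proteins, and annotates RLM3 as TIR-NBS without the leucine-rich repeats.

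In the RefSeq TAIR10.1 annotation the 8 genes spanned chr4:9488466-9565569, or 77.1 kb. RPP4 (9488466 to 9495837), SNC1 (9500271 to 9505972), AT4G16900 (9511859 to 9516688), AT4G16920 (9517950 to 9525800), AT4G16940 (9531373 to 9537918), RPP5 (9538233 to 9544755) and AT4G16960 (9547402 to 9551028) lay on the minus strand. RLM3 (9558571 to 9565569) lay on the plus strand. The longest coding sequences ran from 801 codons in RLM3 to 1449 in RPP5, with 1437 in SNC1. The coding DNA of the P-loop, the nucleotide binding site of NLR proteins, is printed to show how near these genes are to one another in the reads that were counted. Capitals mark the 24 bases that encode the P-loop pattern (G, any 4 residues, G, K, then S or T), within 78 bases read 5′ to 3′ along the gene.
RPP4 (chr4:9491853-9491930, minus strand): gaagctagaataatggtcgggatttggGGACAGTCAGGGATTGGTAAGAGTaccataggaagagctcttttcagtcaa
SNC1 (chr4:9504695-9504772, minus strand): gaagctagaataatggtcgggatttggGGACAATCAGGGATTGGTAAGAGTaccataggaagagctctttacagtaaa
AT4G16900 (chr4:9515723-9515800, minus strand): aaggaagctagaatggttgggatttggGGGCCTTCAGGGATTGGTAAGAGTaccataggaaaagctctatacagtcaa
AT4G16920 (chr4:9524860-9524937, minus strand): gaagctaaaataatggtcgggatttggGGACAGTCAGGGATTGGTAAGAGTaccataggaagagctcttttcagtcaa
AT4G16940 (chr4:9536796-9536873, minus strand): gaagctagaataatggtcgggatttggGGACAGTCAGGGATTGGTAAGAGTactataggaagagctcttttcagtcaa
RPP5 (chr4:9543519-9543596, minus strand): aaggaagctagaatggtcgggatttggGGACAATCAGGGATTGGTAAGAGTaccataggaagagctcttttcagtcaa
AT4G16960 (chr4:9550161-9550238, minus strand): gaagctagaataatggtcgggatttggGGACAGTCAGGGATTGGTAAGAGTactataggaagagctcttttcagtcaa
RLM3 (chr4:9561236-9561313, plus strand): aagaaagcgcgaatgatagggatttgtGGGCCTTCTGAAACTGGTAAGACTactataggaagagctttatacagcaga
Within the 24 capital bases RPP5 was the same as SNC1. RPP4, AT4G16920, AT4G16940 and AT4G16960 each differed from SNC1 at 1 base, AT4G16900 at 3 and RLM3 at 8. Along the aligned coding sequence, RLM3 was 76.5% to 79.3% identical to the other members. All other pairs were 84.5% to 96.1% identical, with AT4G16940 and AT4G16960 nearest at 96.1% and AT4G16920 and RPP5 next at 94.3%.

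The 300 bases before the annotated start of SNC1, after which the snc1 mutant is named, and of AT4G16920, which was called in neither of the main comparisons below, are printed next. Capitals mark matches, on either strand, to TTGAC (core of the W-box bound by WRKY factors), TGACG (element of TGA factors) and AATATCT (core of the evening element).
SNC1 (chr4:9505973-9506272, minus strand): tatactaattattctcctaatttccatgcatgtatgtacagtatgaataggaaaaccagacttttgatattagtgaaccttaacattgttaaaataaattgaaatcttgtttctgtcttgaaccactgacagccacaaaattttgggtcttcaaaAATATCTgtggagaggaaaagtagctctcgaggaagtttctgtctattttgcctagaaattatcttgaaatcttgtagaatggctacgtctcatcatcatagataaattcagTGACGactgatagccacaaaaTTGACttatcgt
AT4G16920 (chr4:9525801-9526100, minus strand): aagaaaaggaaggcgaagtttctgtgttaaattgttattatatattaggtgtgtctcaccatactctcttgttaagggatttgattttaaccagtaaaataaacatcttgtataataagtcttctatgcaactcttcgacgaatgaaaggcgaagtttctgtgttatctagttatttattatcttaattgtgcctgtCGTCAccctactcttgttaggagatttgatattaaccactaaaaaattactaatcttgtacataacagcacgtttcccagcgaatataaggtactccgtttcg
The SNC1 window held each of the 3 motifs once. TTGAC began 12 bases before the start, TGACG 33 and AATATCT 145. The AT4G16920 window held TGACG alone, on the opposite strand, 103 bases before the start. Over the 8 members, TTGAC was found in the windows of 2 genes (SNC1 and AT4G16960), TGACG in 4 (SNC1, AT4G16920, RPP5 and RLM3) and AATATCT in 3 (RPP4, SNC1 and RPP5). Of 27443 windows of the same length over the genome, 50.4% held TTGAC, 21.3% TGACG and 11.8% AATATCT. The first and second motifs can overlap as TTGACG. The windows of RPP4, AT4G16900, RPP5 and AT4G16960 overlapped another annotated gene.

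The depth behind these values was recovered from the TPM steps, since 99.978% to 99.983% of the values above 0 in each library came out as whole reads, within 0.01 of a read, at the annotated gene span with introns. The 6 Col and HTR5 libraries held 13718753 to 14536028 reads and the 6 K4A and sdg2 libraries 20725060 to 30364749. The share of TPM taken by the 10 most abundant genes was 7.976% to 11.32% for Col and HTR5 and 4.66% to 5.639% for K4A and sdg2, so depth and composition divide the libraries as the compared groups do and cannot be told apart from genotype. Replicate 2 of HTR5 differed from replicates 1 and 3 of its group by a chi-square per degree of freedom of 19.3 and 15.9, against 1.8 to 6.1 for pairs of replicates without it. SDG2 itself, 826 kb from the cluster, was at 138.9 to 174.2 TPM in the libraries labelled sdg2 and at 18.3 to 30.7 TPM in the other 9. Its total level was thus higher there, not lower. Values over the whole span do not tell an intact SDG2 transcript from an altered one, so the label could not be checked from them. HTR8, an H3.3 gene, was at 3.99 to 10.12 TPM over the HTR5 and K4A libraries and at 171.7 to 248.6 TPM over those of Col and sdg2. HTR4, also an H3.3 gene, was at 307.5 to 321.1 TPM (Col), 160.7 to 179.3 (HTR5), 71.9 to 86.0 (K4A) and 257.5 to 282.2 (sdg2). The gene HTR5 was at 390.1 to 394.4 TPM (Col), 245.4 to 287.9 (HTR5), 308.6 to 340.9 (K4A) and 396.2 to 457.2 (sdg2). HTR5 and K4A thus also differed in these transcripts, and the part of this in the results was not tested. The summed TPM of 5 green tissue markers was 37250 to 38440 (Col), 30570 to 38680 (HTR5), 18310 to 19590 (K4A) and 11750 to 13500 (sdg2). The sum of 5 pollen markers was 264.1 to 359.2 TPM (Col), 203.7 to 246.0 (HTR5), 7.228 to 10.95 (K4A) and 452.8 to 526.3 (sdg2). Of 5 root markers 1 averaged at least 1 TPM in each group, with sums of 27.58 to 31.67 TPM (Col), 22.84 to 29.48 (HTR5), 25.78 to 26.52 (K4A) and 12.14 to 13.17 (sdg2), and the 4 seed markers summed to at most 3.047 TPM. The part of these marker differences in the results below was not tested. In whole seedlings, fewer cells of a type and less RNA per cell cannot be told apart.

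The first comparison sets the cluster with lysine 4 of HTR5 changed against the same knockout with HTR5 unchanged. In K4A, 6 of the 8 members were higher than in HTR5 and 2 did not pass the test. SNC1, RPP4, RPP5 and RLM3 stood 1.68 to 1.87 times above HTR5 in mean TPM, and the low-level AT4G16940 and AT4G16960 stood 2.24 and 2.45 times above it. AT4G16900 and AT4G16920 were the 2 members not called. Fold changes are from limma on log2(TPM + 1) over all 20881 tested genes, with p-values adjusted by the Benjamini-Hochberg method and called under 0.05. Of all tested genes 68.6% were called in this comparison, 42.5% as higher and 26.1% as lower, so that 6 of 8 calls stand beside a high background. The median log2 fold change was 0.78 over the members and 0.14 over all tested genes. When libraries were scaled by the median of ratios, which puts the median of all tested genes at 0.00, the members' median was 0.62, the same number of members was called higher, and 35.2% of all genes were.

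The second comparison asks how the same genes stand in the libraries labelled sdg2 against the wild type. Here 7 members were higher and none was called lower by limma or by limma-voom. At an unadjusted p under 0.05 there were 7 members, beside 15651 of the 20881 tested genes. Of all tested genes 73.2% were called, 52.4% as higher and 20.7% as lower. The members' median log2 fold change was 1.02 against 0.31 over all tested genes. By the median of ratios it was 0.68 against 0.00, with the same number of members called higher and 34.6% of all genes. The ratio of mean TPM ran from 1.18 for AT4G16920, the member not called, to 4.25 for AT4G16960.

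**Figure D1:**
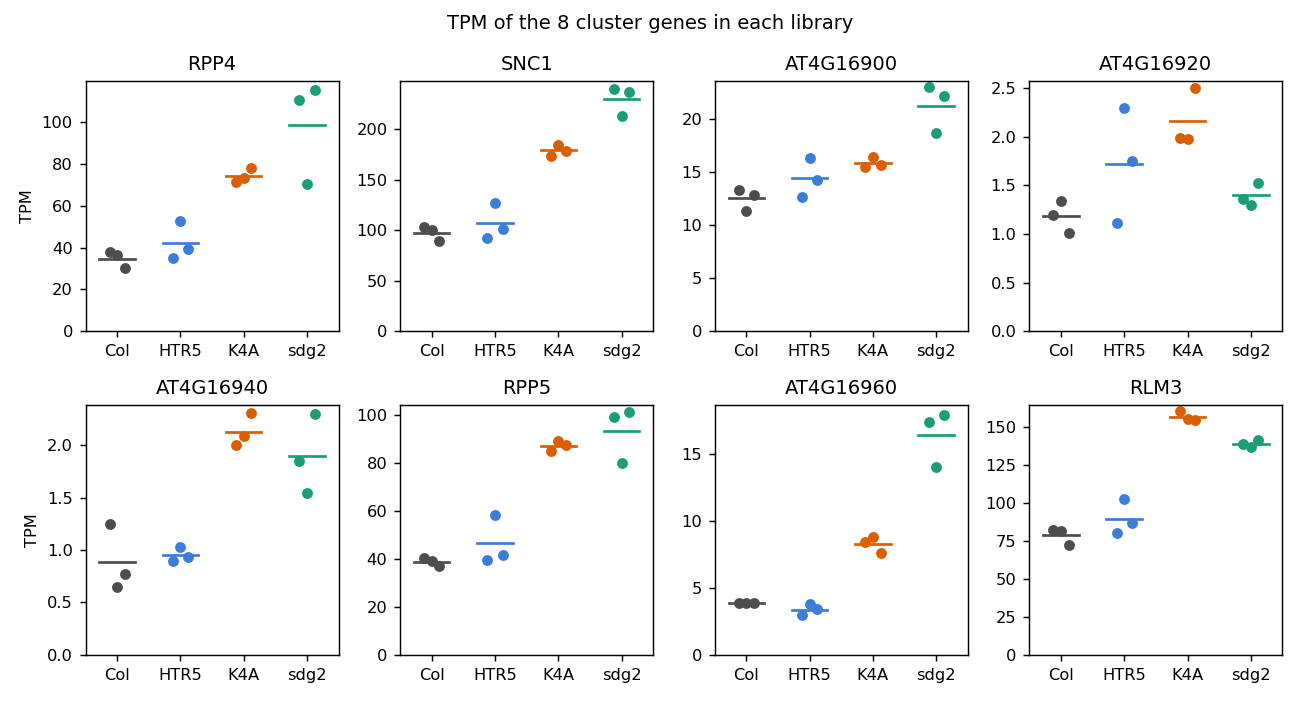
TPM (vertical axis, linear, from 0) of each of the 8 cluster genes in the 12 libraries, by group; points are libraries and bars are group means. In SNC1, RPP4, RPP5, AT4G16940, AT4G16960 and RLM3 each K4A and sdg2 library lies above each Col and HTR5 library, while AT4G16920 overlaps between groups. The share of all tested genes that separate in this way was not counted. Of all tested genes 42.5% (K4A against HTR5) and 52.4% (sdg2 against Col) were called higher.

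SNC1, the TIR-NLR after which the constant-defence mutant is named, had the highest mean TPM of the 8 in each group. TPM here is per base of the whole annotated span. Per base of exon, a rescaling chosen after seeing the data, the mean of RLM3 was 1.24 (Col), 1.29 (HTR5), 1.34 (K4A) and 0.926 (sdg2) times that of SNC1. Its level in TPM was 103.1, 99.71 and 89.21 (Col) and 91.91, 126.9 and 100.9 (HTR5). It was 173.0, 184.3 and 178.7 (K4A) and 240.0, 212.7 and 236.3 (sdg2). The K4A and sdg2 libraries lay above every Col and HTR5 library, the sdg2 libraries lay above the K4A libraries, and Col and HTR5 overlapped. Limma gave a log2 fold change of 0.75 (SE 0.0959, adjusted p = 4.39e-06) for K4A against HTR5. It was 1.23 with the same SE for sdg2 against Col (adjusted p = 1.48e-08), and 0.12 for HTR5 against Col (adjusted p = 0.466).

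RPP4, the downy mildew receptor of Columbia, stood at 37.83, 36.24 and 30.10 TPM (Col) and at 34.95, 52.60 and 39.16 (HTR5). In K4A it stood at 71.37, 73.10 and 77.91 TPM, and in sdg2 at 110.5, 70.31 and 115.4. Replicate 2 of sdg2 lay below the lowest K4A library while the other sdg2 libraries lay above the highest, and both groups lay above Col and HTR5. On the log2 scale the fold change was 0.82 (SE 0.165, adjusted p = 0.000423) for K4A against HTR5 and 1.45 for sdg2 against Col (adjusted p = 1.14e-06). Exons fill 54.6% of the annotated span of RPP4 and 89.7% of that of SNC1, and the TPM values are per base of the whole span, so the level of RPP4 is understated beside that of SNC1. The same holds for RLM3, with exons over 58.8% of its span.

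RPP5, the relative of the Landsberg erecta gene, was at 40.35, 39.05 and 37.03 TPM (Col), 39.46, 58.46 and 41.60 (HTR5), 84.83, 89.26 and 87.43 (K4A), and 99.34, 80.17 and 101.1 (sdg2). K4A and sdg2 overlapped each other, and each lay above all Col and HTR5 libraries. In mean TPM, RPP4 stood at 0.85 to 1.06 times RPP5 over the 4 groups, but per base of exon at 1.38 to 1.72 times. The log2 fold change was 0.91 (SE 0.12, adjusted p = 5.91e-06) for K4A against HTR5 and 1.24 (adjusted p = 1.78e-07) for sdg2 against Col.

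RLM3, the member without leucine-rich repeats and the one on the plus strand, was at 82.56, 81.98 and 72.43 TPM (Col) and 80.11, 102.8 and 86.73 (HTR5). It was at 160.6, 155.6 and 154.7 TPM (K4A) and 138.8, 137.2 and 141.9 (sdg2). Here the K4A libraries lay above the sdg2 libraries, the reverse of SNC1, although the direct test between them was not called (log2 fold change 0.17, adjusted p = 0.087). Against its own control, the log2 fold change was 0.80 (SE 0.0797, adjusted p = 2.6e-07) in K4A and 0.81 (adjusted p = 2.15e-07) in sdg2. Under median-of-ratios scaling the pair was 0.65 and 0.47, both called.

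AT4G16960 had the largest log2 change of the 8 in sdg2. It was at 3.845, 3.902 and 3.838 TPM (Col), 2.938, 3.812 and 3.397 (HTR5), 8.420, 8.820 and 7.626 (K4A), and 17.34, 13.99 and 17.90 (sdg2). The 4 groups did not overlap, with HTR5 lowest and sdg2 highest, although HTR5 against Col was not called (log2 fold change -0.15, adjusted p = 0.454). Limma gave a log2 fold change of 1.09 (SE 0.121, adjusted p = 1.04e-06) for K4A against HTR5 and 1.83 (adjusted p = 2.16e-09) for sdg2 against Col.

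AT4G16940 was near the floor of the table. It was at 1.245, 0.6485 and 0.7732 TPM (Col), 0.8941, 1.030 and 0.9292 (HTR5), 1.999, 2.091 and 2.303 (K4A), and 1.851, 1.543 and 2.301 (sdg2). Both mutant groups lay above Col and HTR5 and overlapped each other. On the log2 scale the fold change was 0.68 (SE 0.152, adjusted p = 0.000974) for K4A against HTR5 and 0.62 (adjusted p = 0.0018) for sdg2 against Col. These values rest on 27 to 154 reads per library, and the added 1 TPM understates their ratio.

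AT4G16900 parted the 2 comparisons. Its level was 13.27, 11.33 and 12.84 TPM (Col), 12.68, 16.30 and 14.24 (HTR5), 15.49, 16.41 and 15.63 (K4A), and 22.97, 18.62 and 22.11 (sdg2). The sdg2 libraries lay above all others, while K4A overlapped HTR5. The log2 fold change was 0.72 (SE 0.108, adjusted p = 2.18e-05) for sdg2 against Col and 0.14 (adjusted p = 0.279) for K4A against HTR5, where it was -0.01 under median-of-ratios scaling. The sdg2 value was 0.39 under that scaling and 0.37 under quantile normalization, both called, and the K4A value was called with array quality weights (0.18, adjusted p = 0.0253).

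AT4G16920 was called in neither comparison. It stood at 1.197, 1.342 and 1.007 TPM (Col), 1.109, 2.298 and 1.748 (HTR5), 1.987, 1.981 and 2.498 (K4A), and 1.363, 1.301 and 1.521 (sdg2). HTR5 spread across the range of the other groups, with replicate 2 above all libraries but 1, and rested, as the whole gene did, on few reads (50 to 175 per library). Limma gave a log2 fold change of 0.23 (SE 0.163, adjusted p = 0.214) for K4A against HTR5 and 0.14 (adjusted p = 0.465) for sdg2 against Col. Without replicate 2 of HTR5 the first was 0.39 and passed the test (adjusted p = 0.0442).

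**Figure D2:**
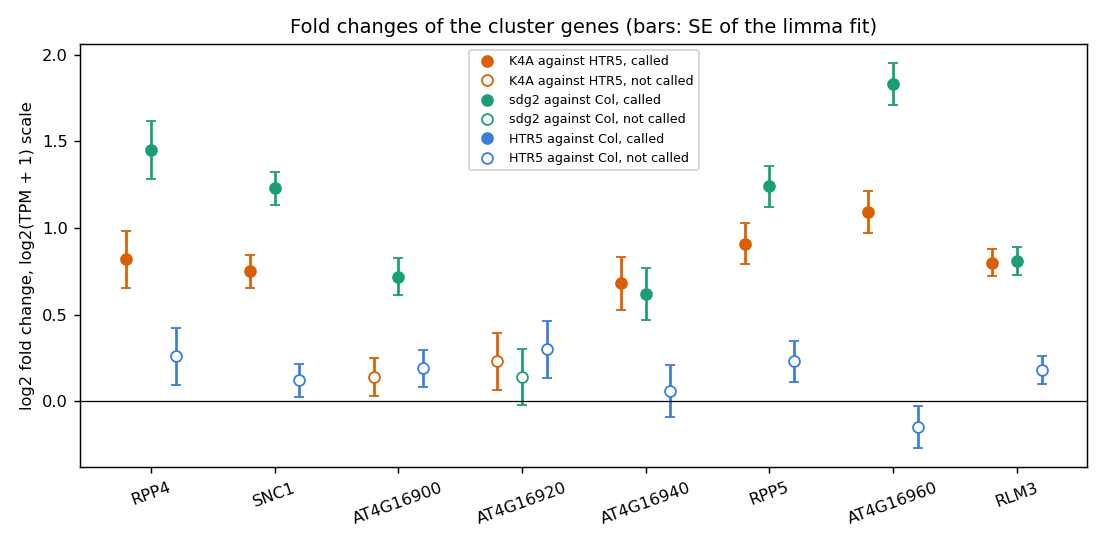
Log2 fold change on the log2(TPM + 1) scale (vertical axis) of each cluster gene in the 3 comparisons named in the key; bars are the SE of the limma fit and filled points were called. The sdg2 values of RPP4, SNC1, AT4G16900, RPP5 and AT4G16960 stand above their K4A values. RLM3 stands at 0.80 (K4A) and 0.81 (sdg2), and no gene has a filled point for HTR5 against Col.

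The knockout with unchanged HTR5 was also set against the wild type. HTR5 against Col called 0 of the 8 members by limma, where 9.28% of all tested genes were called, 5.5% as higher and 3.78% as lower. At an unadjusted p under 0.05 there was 1 member, beside 5141 of the 20881 tested genes. Limma-voom on the recovered reads called 0 members, beside 3.23% of all its tested genes as higher and 5.9% as lower. The members' log2 fold changes ran from -0.15 for AT4G16960 to 0.30 for AT4G16920, with a median of 0.18 against 0.07 over all tested genes. Replicate 2 of HTR5, which stood apart over the whole table, was the highest of its group in each of the 8 genes. Without replicate 1 of HTR5, RLM3 was called higher (log2 fold change 0.26, adjusted p = 0.0445).

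Whether the lysine 4 change and the sdg2 label move the cluster by different amounts was tested as a difference of effects, K4A against HTR5 minus sdg2 against Col, which share no library. In this difference 4 members were lower, with a smaller rise in K4A, where 40.7% of all tested genes were called, 14.1% as higher and 26.6% as lower. The difference in log2 fold change was -0.75 (SE 0.172, adjusted p = 0.00303) for AT4G16960 and -0.58 (SE 0.152, adjusted p = 0.00684) for AT4G16900. It was -0.48 (SE 0.136, adjusted p = 0.0115) for SNC1 and -0.64 (SE 0.234, adjusted p = 0.0406) for RPP4. For RPP4 the call was lost at the stricter adjusted p of 0.01 and under 6 other settings at 0.05, with adjusted p from 0.0514 under limma-voom to 0.0901 under median-of-ratios scaling. It was also lost, with adjusted p up to 0.112, without replicate 2 or 3 of Col, replicate 2 of HTR5, any replicate of K4A, or replicate 1 or 3 of sdg2. The difference was -0.33 (SE 0.169, adjusted p = 0.135) for RPP5 and -0.01 (SE 0.113, adjusted p = 0.963) for RLM3. It was 0.10 for AT4G16920 and 0.06 for AT4G16940, with adjusted p of 0.757 and 0.844. The median over the members was -0.40 and over all tested genes -0.16. By the median of ratios these were -0.22 and 0.01, the SNC1 value was -0.29, and 3 members were called lower, beside 17.1% of all tested genes.

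Set directly against each other, K4A was below sdg2 in 3 members and above it in none, where 50.2% of all tested genes were called, 20.4% as higher and 29.8% as lower. The log2 difference was -0.36 (adjusted p = 0.00573) for SNC1, -0.40 (adjusted p = 0.00646) for AT4G16900 and -0.90 (adjusted p = 1.74e-05) for AT4G16960. For the other 5 members it ran from -0.38 in RPP4 (adjusted p = 0.0703) to 0.39 in AT4G16920 (adjusted p = 0.0561). At an unadjusted p under 0.05 there were 6 members, beside 11704 of the 20881 tested genes. Limma-voom called 2 members higher in K4A and 4 lower, beside 29.3% and 28.3% of all its tested genes. Median-of-ratios scaling called RLM3 (0.26, adjusted p = 0.00106) and AT4G16920 (0.44, adjusted p = 0.0215) higher in K4A and 3 members lower. By that scaling 5526 of the 20881 tested genes were higher and 5212 lower.

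The order of mean levels was therefore not one and the same. SNC1 rose from Col and HTR5, which were not told apart, to K4A and then sdg2, each step past the test. RPP4 and RPP5 had the same order of means, but the step from K4A to sdg2 was not called for either. For RPP4 that step was called under limma-voom (-0.29, adjusted p = 0.049), with array quality weights (-0.51, adjusted p = 0.00034), without replicate 2 of HTR5 (-0.38, adjusted p = 0.0307) and without replicate 2 of sdg2 (-0.60, adjusted p = 0.00259). AT4G16960 had HTR5 and Col lowest, then K4A, then sdg2. In AT4G16900 the step from K4A to sdg2 was the one neighbouring step that passed the test. In RLM3 and AT4G16940 the K4A mean was highest, and the step between HTR5 and sdg2 was the one that passed. In AT4G16920 no neighbouring step passed, with the order Col, sdg2, HTR5, K4A. Against Col, the K4A libraries were higher in each of the 8 members, from 0.32 in AT4G16900 (adjusted p = 0.0137) to 1.15 in RPP5 (adjusted p = 4.25e-07), where 72.4% of all tested genes were called, 48.6% as higher and 23.8% as lower. The AT4G16900 call was lost by the median of ratios (0.08, adjusted p = 0.373). Against HTR5, the sdg2 libraries were higher in 7 members and AT4G16920 was at -0.16 (adjusted p = 0.394), where 70.4% of all tested genes were called, 47.2% as higher and 23.2% as lower.

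The members share sequence, so how reads were divided among them bears on each single value. Of the 50-base stretches of exon, 56.7% in AT4G16960, 45.1% in RPP5, 39.4% in AT4G16920, 29.8% in AT4G16940, 29.1% in RPP4, 21.2% in SNC1 and 10.6% in AT4G16900 occur unchanged elsewhere in the genome. For RLM3 it was 0.0%. Repeats within the same gene are counted in these shares. At 100 bases the share was still 54.0% in AT4G16960 and 27.2% to 29.7% in AT4G16920, AT4G16940 and RPP5, against 3.05% in SNC1. How the authors treated reads that map to several places is not given in the sources used here, so the values of AT4G16960, AT4G16940, AT4G16920 and RPP5 are uncertain as measures of single genes. RLM3, with no shared stretch of either length, rose in both comparisons.

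The sum over the 8 genes does not depend on how reads were divided among them, although it would miss reads left out for mapping to several places. It also does not cover stretches shared with genes outside the cluster. Of the 50-base stretches of RPP5, 45.1% occur elsewhere in the genome and 35.9% at another place within the members, the same gene included. For AT4G16920 these shares were 39.4% and 32.2%. In recovered reads per 1000000, Col had 811.9, 788.0 and 719.7 on the cluster, HTR5 773.0, 1007 and 834.2, K4A 1353, 1385 and 1387, and sdg2 1587, 1371 and 1609. Each K4A and sdg2 library lay above each Col and HTR5 library. SNC1 took 29.68% to 35.93% of these reads and RLM3 24.29% to 33.81%. The share of RLM3 was lower in the 3 sdg2 libraries, at 24.29%, 28.45% and 24.52%, than in the other 9, where it was 30.89% or more.

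**Figure D3:**
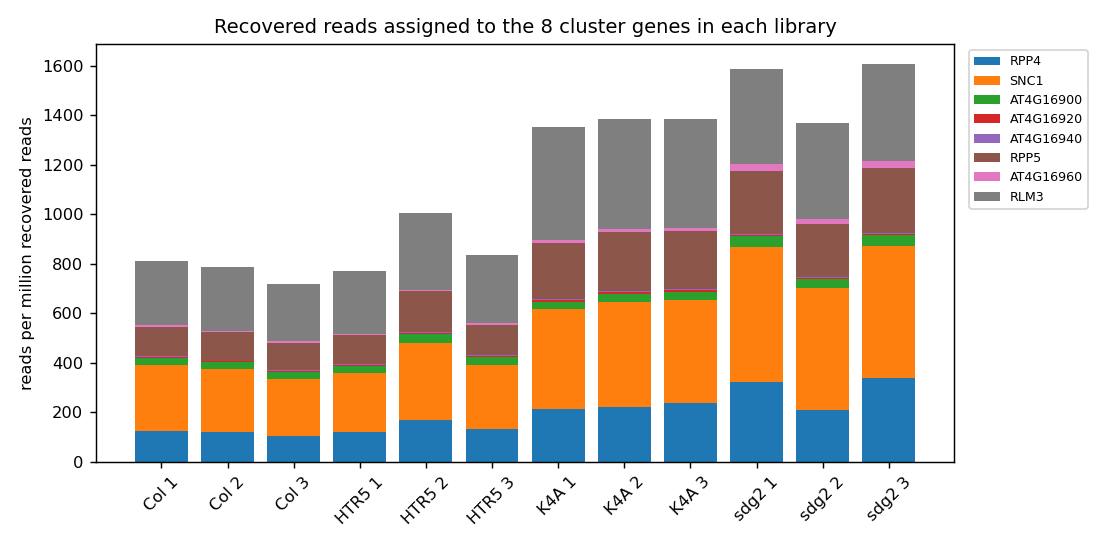
Reads on each of the 8 cluster genes, scaled to the recovered reads of the library (stacked bars, vertical axis from 0) in each of the 12 libraries. The stacks reach 719.7 to 1007 in Col and HTR5 and 1353 to 1609 in K4A and sdg2, with SNC1 and RLM3 as the largest parts.

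Genes around the cluster were looked at next, namely 3 tested genes between the members and 10 on each side. In K4A against HTR5, 11 of these 23 were higher and 4 lower, the median log2 fold change being 0.25. In sdg2 against Col, 14 were higher and 3 lower, with a median of 0.38. By the median of ratios the counts were 8 higher and 6 lower, and 9 higher and 4 lower. Quantile normalization gave 5 higher and 7 lower in K4A. Without scaling, 42.5% of all tested genes were higher and 26.1% lower in K4A, and 52.4% and 20.7% in sdg2. By the median of ratios these shares were 35.2% and 34.6% in K4A, and 34.6% and 34.6% in sdg2. By quantile normalization they were 32.3% and 37.3% in K4A. Of 8 other annotated genes between the first and last member, 4 were listed at 0 in all libraries.

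A gene between the members went the other way. AT4G16880, annotated as a leucine-rich repeat protein and lying between RPP4 and SNC1 (9495983 to 9497313), was at 55.56, 52.45 and 43.85 TPM (Col) and 58.97, 86.51 and 62.45 (HTR5). It was at 28.76, 34.18 and 41.30 TPM (K4A) and 20.01, 16.24 and 18.86 (sdg2). Each K4A and sdg2 library lay below each Col and HTR5 library, while the members on both sides of it stood higher. It fell by 0.97 on the log2 scale in K4A against HTR5 (adjusted p = 2.62e-05) and by 1.41 in sdg2 against Col (adjusted p = 4.09e-07). AT4G16957 lies between RPP5 and AT4G16960 (9544790 to 9547340). Its annotated product reads "SUPPRESSOR OF, CONSTITUTIVE protein", words from the full name of SNC1. Exon stretches that AT4G16880 or AT4G16957 shares with the members were not counted. AT4G16957 rose by 0.96 (adjusted p = 1.22e-07) and 1.97 (adjusted p = 2.11e-11). Its mean was 8.02 ± 0.585 TPM (Col), 6.41 ± 0.376 (HTR5), 13.4 ± 0.276 (K4A) and 34.3 ± 0.892 (sdg2), with SD and n = 3 each. The protein kinase gene AT4G16970 stood at 0.44 (adjusted p = 0.0156) and 0.38 (adjusted p = 0.0305), the second not called by the median of ratios (0.10, adjusted p = 0.517).

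Outside the cluster on the RPP4 side lies AT4G16857, also annotated as TIR-NBS-LRR. It was at 5.486, 5.188 and 4.154 TPM (Col), 2.122, 3.860 and 1.680 (HTR5), 3.893, 3.411 and 3.435 (K4A), and 20.56, 21.04 and 24.50 (sdg2). The sdg2 libraries lay far above all others, and HTR5 lay below Col. It rose by 1.96 in sdg2 against Col (adjusted p = 1.01e-07), and K4A against HTR5 was at 0.41 (adjusted p = 0.0535). On the RLM3 side EXLB1, an expansin-like gene, fell by 2.92 in K4A against HTR5 (adjusted p = 6.62e-12) and by 1.80 in sdg2 against Col (adjusted p = 2.11e-09). VRN2, a Polycomb gene on the RPP4 side, rose by 0.34 (adjusted p = 0.0102, not called under quantile normalization at 0.16) and 0.75 (adjusted p = 1.37e-05).

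**Figure D4:**
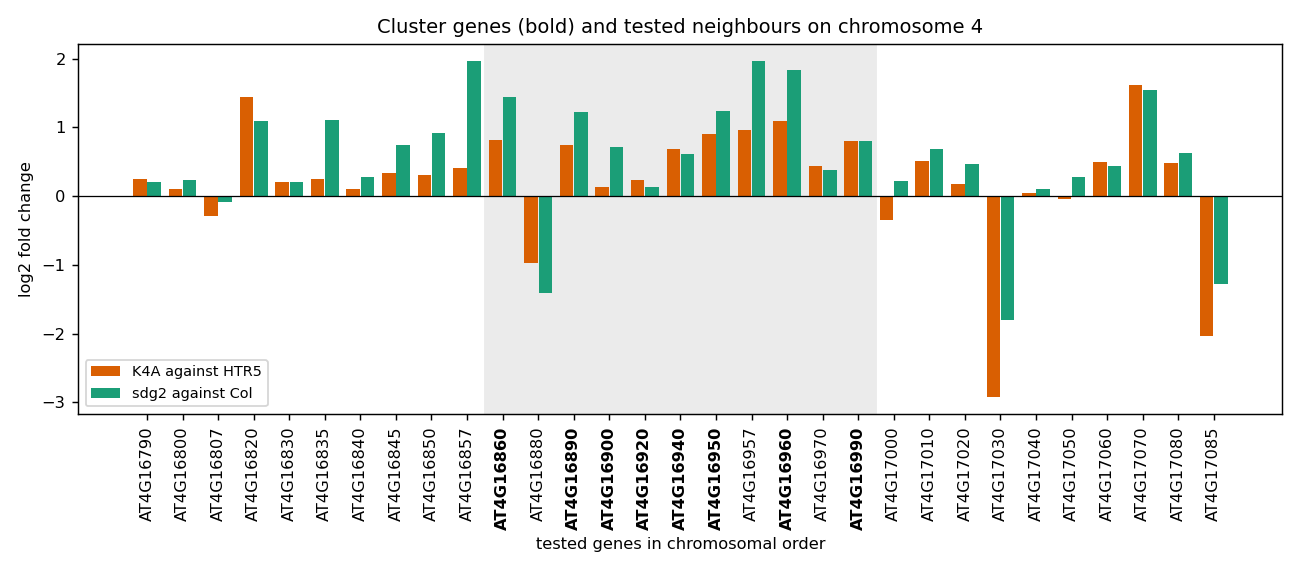
Log2 fold change (vertical axis) of the cluster genes (bold) and their tested neighbours in chromosomal order for K4A against HTR5 and sdg2 against Col; the shaded stretch runs from the first to the last member. Within it AT4G16880 is the one gene with bars below 0, and outside it EXLB1 (AT4G17030) has the deepest bar at -2.92.

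The genes through which SNC1 signals were then listed. Of 10 partners tested, 9 were higher and 1 lower in K4A against HTR5 (median log2 fold change 1.87), and 10 were higher in sdg2 against Col, with a median of 2.1. Of all tested genes, 42.5% and 52.4% were higher in these comparisons. By the median of ratios 8 partners were higher and 1 lower in K4A, and 9 were higher in sdg2, beside 35.2% and 34.6% of all tested genes higher. EDS1, the lipase-like hub of TIR-NLR signalling, was at 22.7 ± 1.02 TPM (Col), 26.2 ± 4.65 (HTR5), 126 ± 5.95 (K4A) and 135 ± 0.98 (sdg2), with SD and n = 3 each. Its log2 fold changes were 2.24 (adjusted p = 8.53e-12) and 2.52 (adjusted p = 1.83e-12). Its partners PAD4 and SAG101 rose by 2.19 and 2.37 (K4A) and by 2.09 and 2.24 (sdg2). The helper receptor ADR1 rose by 2.32 and 2.12, and the helpers NRG1.1 and NRG1.2 both rose by 0.58 (K4A) and by 0.86 and 1.41 (sdg2), the 0.86 being 0.53 under median-of-ratios scaling. The ADR1 relatives ADR1-L1 and ADR1-L2 rose by 1.97 and 1.76 (K4A) and by 2.48 and 2.01 (sdg2). EDS1, PAD4, SAG101, ADR1, ADR1-L1 and ADR1-L2 rose by more than SNC1 itself in both comparisons. That difference between genes was not tested. TPR1, the corepressor that binds SNC1, stood at 0.24 (adjusted p = 0.00737) and 0.41 (adjusted p = 9.53e-05), but by the median of ratios at 0.09 and 0.07, called in neither.

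EDS1B, the neighbouring copy of EDS1, was the partner that was lower in K4A. It was at 4.21 ± 0.342 TPM (Col), 5.08 ± 0.807 (HTR5), 2.43 ± 0.254 (K4A) and 45.1 ± 0.539 (sdg2), with SD and n = 3 each. It fell by 0.82 in K4A against HTR5 (adjusted p = 1.37e-05) and rose by 3.15 in sdg2 against Col (adjusted p = 1.92e-12), and the difference of effects of -3.97 was called. Sequence shared by EDS1 and EDS1B was not measured, and the treatment of reads mapping to several places is not given. The values of this pair may therefore be uncertain as measures of single genes. In HTR5 against Col, 2 of the 10 partners were higher, SAG101 (0.36) and NRG1.2 (0.35), where 5.5% of all tested genes were.

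Genes listed as needed for the snc1 phenotype had smaller median changes than the cluster. Of 16 tested, 11 were higher and 0 lower in K4A against HTR5 by limma (median 0.30), and 14 were higher in sdg2 against Col, with a median of 0.58. Of all tested genes 42.5% and 52.4% were higher, and their medians were 0.14 and 0.31. The 11 in K4A were also the number at an unadjusted p under 0.05, where 14811 of the 20881 tested genes stood. By the median of ratios 8 were higher and 2 lower in K4A, beside 35.2% and 34.6% of all tested genes. In sdg2 11 were higher and 1 lower by that scaling, beside 34.6% and 34.6%. Under quantile normalization 6 of the 16 were higher and 3 lower in K4A, beside 32.3% and 37.3% of all tested genes. MOS1, which acts on SNC1 transcription, rose by 0.42 (adjusted p = 0.00125) in K4A and by 0.99 (adjusted p = 2.13e-07) in sdg2. CDC5, of the MOS4-associated complex, rose by 0.49 (adjusted p = 0.000128) and 0.87 (adjusted p = 2.76e-07). ATXR7, the lysine 4 methyltransferase named above, was at -0.19 (adjusted p = 0.157) in K4A against HTR5 and rose by 0.56 (adjusted p = 0.000422) in sdg2 against Col, with a called difference of effects of -0.75. In sdg2 the values of MOS1, CDC5 and ATXR7 were 0.65, 0.53 and 0.24 under median-of-ratios scaling, each called. The K4A value of ATXR7 by the median of ratios was -0.33 and was called lower (adjusted p = 0.00342).

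Of 14 tested genes listed as holding SNC1 down, 11 were higher in K4A against HTR5 (median 0.61) and 13 in sdg2 against Col (median 0.90), beside 42.5% and 52.4% of all tested genes. By the median of ratios 9 were higher in K4A (median 0.46) and 9 in sdg2 (median 0.56), beside 35.2% and 34.6% of all tested genes. None was called lower by limma or by the median of ratios, while in K4A limma-voom called 1 lower and quantile normalization 2. BON1, a copine of this list, was listed at 0 in all 12 libraries, and CHS1, RLM1 and RFL1 of the next list stayed under the low-value limit. BAP1, the partner of BON1, was at 2.41 ± 0.318 TPM (Col), 5.35 ± 2.19 (HTR5), 38.9 ± 2.43 (K4A) and 39.7 ± 1.16 (sdg2), with SD and n = 3 each. It rose by 2.70 (adjusted p = 1.02e-09) and 3.58 (adjusted p = 3.25e-11). CPR1, the F-box protein that marks SNC1 for degradation, was at 0.08 in K4A against HTR5 (adjusted p = 0.491) and at 0.43 in sdg2 against Col (adjusted p = 0.000869). CPR1 was at -0.08 and 0.09 by the median of ratios, called in neither, while under quantile normalization its K4A value was -0.18 and called lower (adjusted p = 0.0408). The chaperone HSP90.1 rose by 2.33 and 1.98, and its partner SGT1A by 1.35 and 1.46. Whether HSP90.1 and SGT1A act on SNC1 was not tested here. MUSE3, a ubiquitin ligase that acts on SNC1 turnover, was at 34.5 ± 4.34 TPM (HTR5) and 34.3 ± 1.65 (K4A), and rose by 1.09 in sdg2 against Col (adjusted p = 5.91e-08). Under limma-voom its K4A value was -0.16 and called lower (adjusted p = 0.0371).

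**Figure D5:**
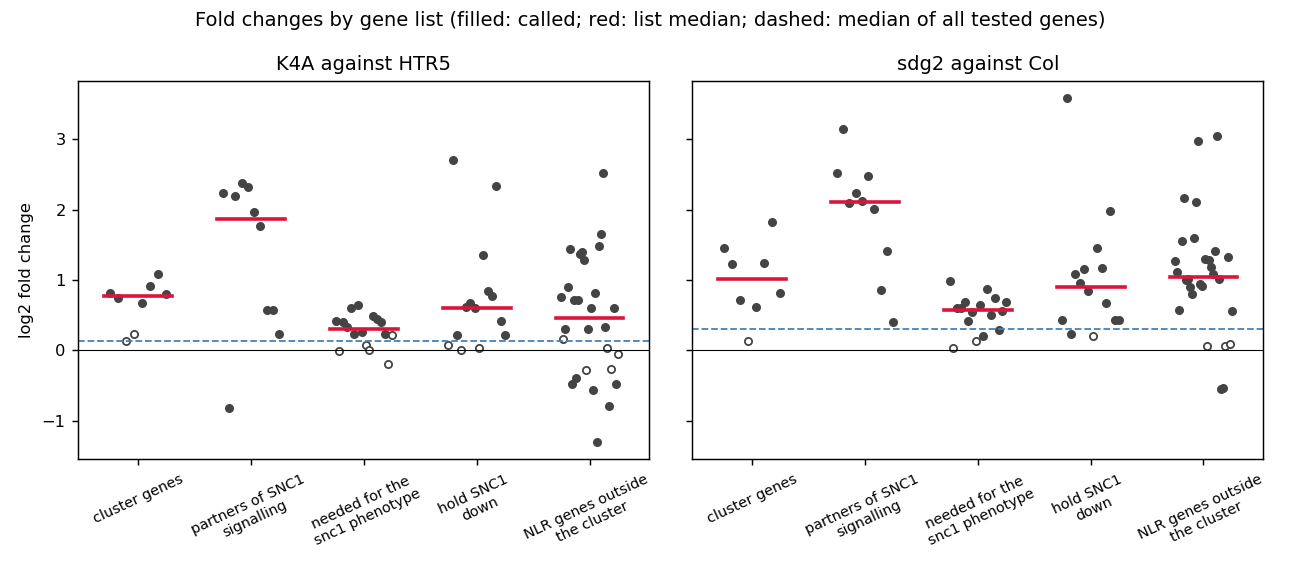
Log2 fold change (vertical axis) of each tested gene of the cluster and of 4 gene lists for K4A against HTR5 (left) and sdg2 against Col (right); filled points were called, red bars are list medians and the dashed line is the median of all tested genes. The list medians run from 0.30 to 1.87 on the left and from 0.58 to 2.1 on the right, with the cluster at 0.78 and 1.02.

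Other NLR genes ran from -1.30 to 2.52 in K4A against HTR5, where the cluster ran from 0.14 to 1.09. Of 28 tested outside it, 17 were higher and 6 lower in K4A against HTR5 (median 0.47), and 23 were higher and 2 lower in sdg2 against Col (median 1.05). By the median of ratios the counts were 14 and 9, and 23 and 4. Of all tested genes 42.5% were higher and 26.1% lower in K4A without scaling, and 52.4% and 20.7% in sdg2. By the median of ratios these shares were 35.2% and 34.6% in K4A, and 34.6% and 34.6% in sdg2. VICTR, a TIR-NLR gene, rose by 2.52 (adjusted p = 1.54e-10) and 3.05 (adjusted p = 1.51e-11). ZAR1, a coiled-coil NLR that assembles into a resistosome, rose by 1.37 and 1.59, and RPS2, which guards RIN4, by 1.44 and 2.17. RPM1, the other guard of RIN4, fell by 0.48 in K4A (adjusted p = 0.00206) and rose by 1.0 in sdg2 (adjusted p = 1.97e-06). RPP8 likewise fell by 0.39 (adjusted p = 0.00455) and rose by 0.90 (adjusted p = 2.11e-06). DSC2 fell by 1.30 (adjusted p = 4.35e-07) and rose by 1.19 (adjusted p = 1.13e-06). SUMM2 fell in both, by 0.79 (adjusted p = 0.000307) and 0.53 (adjusted p = 0.00624). In the difference of effects 18 of the 28 were lower and 2 higher, with a median of -0.60 beside -0.40 for the cluster. Of all tested genes 26.6% were lower there, with a median of -0.16.

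The 5 tested genes whose pattern over the 12 libraries was most like that of SNC1 were found by the root mean square difference of log2(TPM + 1) after each gene's own mean was subtracted. They were AT1G60890 (a phosphatidylinositol phosphate kinase family gene, difference 0.0481), AT4G16660 (an Hsp70 family gene, 0.0562), AT1G28240 (0.0684), AT1G76580 (an SBP-like transcription factor gene, 0.0692) and URE (urease, 0.0693). AT1G60890 was at 10.4 ± 0.725 TPM (Col), 11.0 ± 2.39 (HTR5), 19.9 ± 0.948 (K4A) and 25.5 ± 1.94 (sdg2), with SD and n = 3 each. AT4G16660 was at 70.0 ± 1.62, 72.3 ± 12.1, 124 ± 1.82 and 165 ± 4.37 TPM in the same order. Among 20880 genes ranked by this measure, RPP5 was 199th (0.123), RPP4 527th (0.157), RLM3 1485th (0.215), AT4G16940 2906th (0.272), AT4G16900 3573rd (0.294), AT4G16960 4613th (0.328) and AT4G16920 10083rd (0.495). All of them share the same libraries and the same depth.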

How the data were processed

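RNA sequencing values were used for 12 libraries, 3 in each of 4 groups, grouped and numbered by their titles. A single table of TPM was deposited by the authors, whose values sum to the same total in each library. The heading of 1 sdg2 column names counts, yet that column has the scale of the others and was read as TPM. Per the submitters' processing notes, fastp 0.20.1, HISAT2 2.1.10 and DESeq2 1.26.0 were used with the build TAIR10. The counting tool, the use of strand and the treatment of reads mapping to several places are not given in the sources used here.

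From the TPM values, log2(TPM + 1) was fitted with limma 3.58.1 in R 4.3.3 (empirical Bayes moderation with a mean-variance trend, 1 mean per group, all 12 libraries). A gene was tested if 3 or more libraries reached 1 TPM, which left 20881 genes, and p-values were adjusted by Benjamini-Hochberg over all of them, two-sided, with a threshold of 0.05. The fit was run on simulated libraries, all drawn from the mean Col profile, with known changes in the sdg2 columns alone. Such data lack the difference in composition seen between the real groups, so they do not test the fit under it. Whole reads were recovered from the TPM steps and the annotated gene spans (210 genes had none) for depth and for an alternative test by limma-voom. Alternatives were another pseudocount, filter, scaling, trend or weighting, a replicate block, a stricter threshold, fits on the compared groups alone and leaving out each library. Levels per base of exon, the recovered reads divided by annotated exon length, were added after seeing the data.

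Named genes were the 8 members, any gene of the 4 lists, any neighbouring gene as defined in the text, and the 5 genes most like SNC1. The members and lists were chosen with earlier results of these data known. Sequences, spans and products were read from the RefSeq TAIR10.1 genome and annotation with Biopython 1.88 and matched by locus identifier, which all 8 members did. The windows before gene starts were read from that genome, and coding DNA is shown in place of protein.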

Additional observations from a re-analysis of the deposited data

Results flagged for a closer look

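In 4 members the change in K4A against HTR5 and that in sdg2 against Col differed by a test of the difference itself (limma, adjusted over all tested genes). The log2 fold change for K4A against HTR5 minus that for sdg2 against Col was -0.64 for RPP4, -0.48 for SNC1, -0.58 for AT4G16900 and -0.75 for AT4G16960. In each the rise against the group's own control was the smaller in K4A, and 26.6% of all tested genes were called lower in the same test. The RPP4 call was lost at an adjusted p under 0.01, under 6 other settings at 0.05 (adjusted p = 0.0514 to 0.0901) and in 8 of 12 fits that left out 1 library. The median of ratios, quantile normalization and voom each called 3 members lower, beside 17.1%, 20.2% and 17.4% of all tested genes. Depth was 20725060 to 30364749 recovered reads over K4A and sdg2 and 13718753 to 14536028 over Col and HTR5, and its part in the difference was not tested. The value of AT4G16960 rests on a gene of which 54.0% of the 100-base exon stretches occur elsewhere in the genome.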

How the results depend on the processing

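Of 650 fold changes of named members under another setting, 612 kept their direction and side of the threshold, 12 were no longer called, 16 became called and 10 changed sign. With 1 library left out, these numbers were 646, 9, 8 and 9 of 672. The counts of 6 and 7 members called higher in the main comparisons stayed within 5 to 7 and 6 to 7 under the planned settings, except that with Col in place of HTR5 as the control of K4A the first was 8; the lowest values come from the filter at a mean TPM of 5, which removes 2 members. Members called lower in the difference of effects went from 4 to 2 at an adjusted p under 0.01. Members called higher in K4A against sdg2 went from 0 to 2 with the median of ratios, quantile normalization, voom, array quality weights or the compared groups alone, and to 1 without the trend. Members called lower in sdg2 against HTR5 went from 0 to 1 with limma-voom.

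In HTR5 against Col, the partners called went from 2 to 0 (limma-voom, adjusted p under 0.01, compared groups alone). The genes needed for snc1 went from 1 to 0 (no filter, no trend, adjusted p under 0.01, compared groups alone), 2 (median of ratios, limma-voom) or 3 (array weights). The genes that hold SNC1 down went from 1 to 3 (median of ratios), 2 (limma-voom, array weights) or 0 (compared groups alone). The other NLR genes went from 1 to 3 and the neighbours from 2 to 4 with array weights, and the neighbours to 0 at the stricter threshold or with the compared groups alone. In the difference of effects, the partners called went from 3 to 6 (median of ratios, quantile, limma-voom) or 5 (array weights). The genes needed for snc1 went from 7 to 4 (median of ratios, limma-voom) or 3 (stricter threshold). Those that hold SNC1 down went from 5 to 3 (median of ratios, limma-voom, stricter threshold) or 8 (array weights), and the neighbours from 8 to 5 (stricter threshold).

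The sign changed for 3 uncalled values under the median of ratios, quantile normalization and voom, in that order: AT4G16900 in K4A against HTR5 (-0.01, -0.05, -0.02), AT4G16920 in sdg2 against Col (-0.06, -0.02, -0.11) and RLM3 in the difference of effects (0.18, 0.03, 0.18, and 0.05 with array weights). The cause was not tested for these and the other changes above.

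With 1 library left out, members called higher ranged from 0 to 1 in HTR5 against Col and from 0 to 2 in K4A against sdg2. In HTR5 against Col the calls ranged from 0 to 2 for the partners, 0 to 1 for genes needed for snc1, 1 to 2 for those that hold SNC1 down, 1 to 5 for the other NLR genes (5 without replicate 1 of HTR5) and 0 to 4 for the neighbours. In the difference of effects they ranged from 3 to 5, 3 to 7 and 5 to 8 for the partners, the genes that hold SNC1 down and the neighbours. Log2 fold changes ranged from -0.01 to 0.22 for SNC1 and from -0.03 to 0.19 for AT4G16940 in HTR5 against Col. In the difference of effects they ranged from -0.07 to 0.25 for AT4G16920, from -0.07 to 0.16 for AT4G16940 and from -0.09 to 0.09 for RLM3.

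Libraries with the same replicate number did not deviate together (correlations of -0.136 to 0.07 over genes), so the numbers were not taken as a pairing. With the replicate block, the members called higher numbered 6 for K4A against HTR5 and 7 for sdg2 against Col, and the RPP4 difference of effects was no longer called (adjusted p = 0.0563). The block moved the HTR5 against Col calls to 1 partner, 0 genes needed for snc1 and 1 neighbour. Depth limits AT4G16940 and AT4G16920 most.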
